A study of Rattus norvegicus with 6 samples.

Results

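The genes described here are 9 markers of cell proliferation and mitosis, Ccnd1, Pcna, Top2a, Ccna2, Cdk1, Ccnb1, Plk1, Aurkb and Mki67, out of 32754 Ensembl gene IDs in the count table. They were listed by ID, by a rule that uses no measured value, although the list was proposed with earlier results of these data known. All 9 passed the filter on low counts. The symbols come from that rule and could not be checked against the annotation behind the counts. RNA was sequenced from rat cortex taken before birth, on embryonic day 18. The control group was 3 embryos of the Sprague-Dawley strain (SD), and the other group was 3 embryos of the tish line, which carries a deletion in Eml1, a gene for a microtubule-associated protein, and has a band of misplaced neurons beneath the cortex in both hemispheres. Each group held 2 males and 1 female, each library came from 1 animal, and the labels give no drug or other exposure. The tish samples took in both the normally placed and the heterotopic cortex, while the SD samples were neocortex, so genotype and the tissue collected cannot be told apart. Dam and litter were not among the labels used here, so the p-values measure only the spread between these embryos.

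In the embryonic cortex, neurons come from dividing cells that line the ventricle, the radial glia, and from intermediate progenitors above them. Neurons leave the cell cycle for good, so transcripts of the division machinery come mainly from progenitors. Passage through the cycle is driven by cyclins, which switch on cyclin-dependent kinases in turn: D-type cyclins in G1, cyclin A in S and G2, and cyclin B with Cdk1 at entry into mitosis. Many genes of G2 and mitosis are silenced in resting cells by the DREAM complex, which binds a short promoter element, the cell cycle genes homology region (CHR). They are switched on in dividing cells with help from NF-Y, which binds CCAAT boxes. In bulk tissue, fewer cycling cells and less of these RNAs per cycling cell cannot be told apart.

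All 9 genes were lower in tish than in SD. The summed level of the 9 genes was 685, 925 and 964 CPM (counts per 1000000 counts of a library, with TMM factors) in the SD libraries, given in replicate order here and throughout. In the tish libraries it was 404, 419 and 376 CPM. The groups did not overlap, and the mean fell from 858 ± 151 CPM in SD to 400 ± 21.7 CPM in tish (n = 3 each; ± gives the standard deviation, s.d.), a tish to SD ratio of 0.466. Each gene passed the test of tish against SD (edgeR quasi-likelihood test, adjusted p from 0.000184 for Ccnb1 to 0.00607 for Mki67). Of all 14818 genes tested, 26.3% were called and 12.9% were called lower in tish, against 9 of these 9, a list that was not chosen blind to the data. None was called higher (0 of 9, and 0 at an unadjusted p under 0.05, with 0 also called higher by DESeq2 and limma-voom), where 13.4% of all tested genes were.

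The sizes of the change fell into 2 ranges. Top2a, Ccna2, Cdk1, Ccnb1, Plk1, Aurkb and Mki67, 7 of the 9 genes, were called and more than 2-fold lower in tish, as were 3.76% of all tested genes. Ccnd1 and Pcna were 1.52-fold and 1.62-fold lower. The median log2 fold change of the 9 genes was -1.25, against -0.02 over all tested genes. In all 9 genes every tish library lay below every SD library, as was the case in 22.6% of tested genes.

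**Figure D1:**
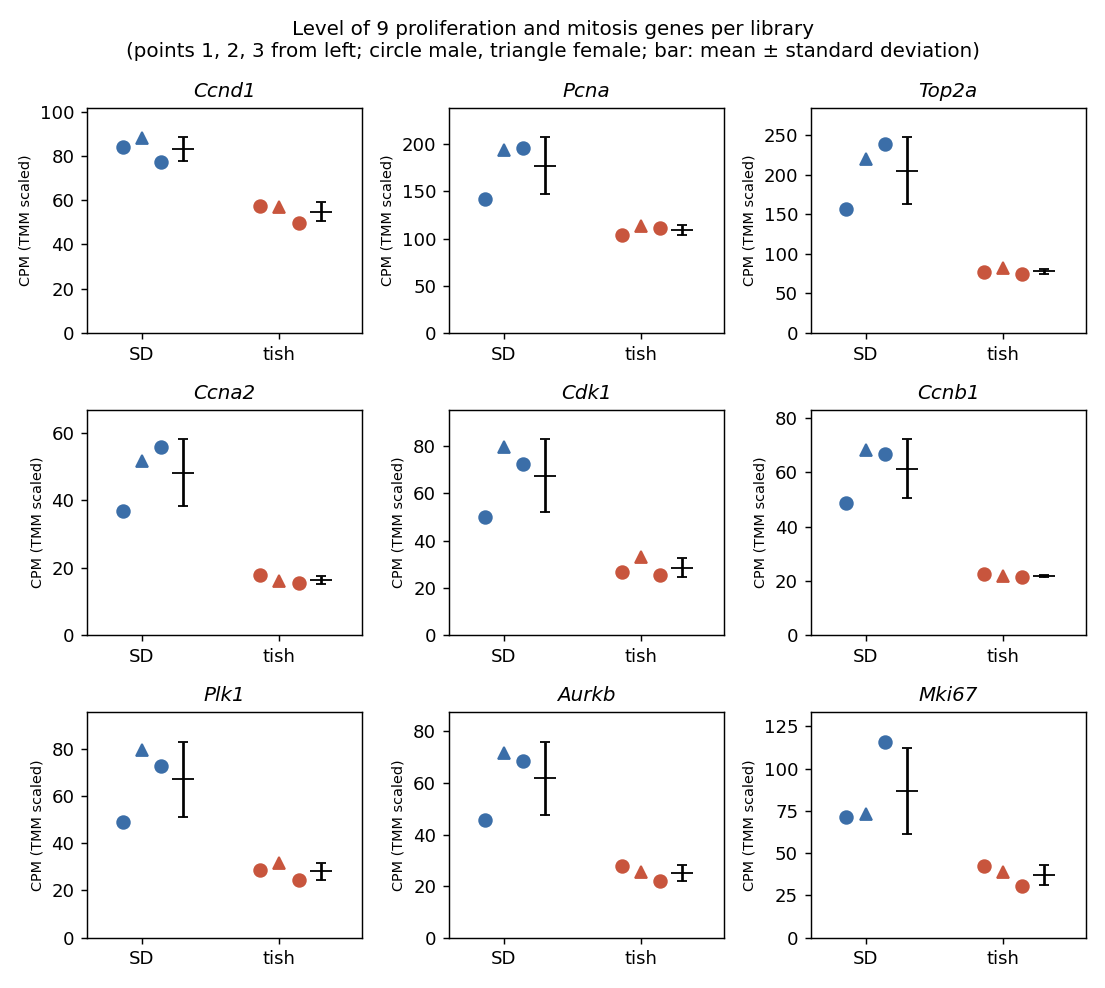
Level of each gene in CPM scaled by TMM factors (y axis from 0) in the 3 SD and 3 tish libraries; circles are males, triangles females, and the bar beside each group is its mean ± standard deviation. In all 9 panels the 3 tish points lie below the 3 SD points, and SD 1 is the lowest SD point in 8 panels.

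Promoters of 6 of the 9 genes were in the RefSeq table of the rat assembly GRCr8, each as 300 bases from 250 before to 50 after the start of transcription. The table held none for Ccnd1, Ccna2 and Aurkb. The bases before the start are shown for Cdk1, its partner Ccnb1, Top2a and Plk1. For Pcna the 150 bases before the start hold no CCAAT or CHR core and are not shown. Capitals mark CCAAT on either strand (ATTGG where it lies on the other) and the CHR cores TTTGAA (or TTCAAA) and TTTAAA. The Ccnb1, Top2a and Plk1 stretches end at the base before the start. That of Cdk1 ends 42 bases before the start used in the table, since another transcript model begins just after it. Another TTTGAA of Cdk1, with its first base at -16 from the start used, lies past the end of the stretch and is not shown.
Cdk1 (chr20:19265143-19265251, plus strand): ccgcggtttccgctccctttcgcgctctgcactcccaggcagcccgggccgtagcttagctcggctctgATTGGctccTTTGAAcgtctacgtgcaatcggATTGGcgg
Ccnb1 (chr2:33655226-33655375, minus strand): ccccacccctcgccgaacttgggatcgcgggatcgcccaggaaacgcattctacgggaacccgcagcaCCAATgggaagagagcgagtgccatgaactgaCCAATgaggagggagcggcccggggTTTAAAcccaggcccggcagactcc
Top2a (chr10:84473094-84473243, minus strand): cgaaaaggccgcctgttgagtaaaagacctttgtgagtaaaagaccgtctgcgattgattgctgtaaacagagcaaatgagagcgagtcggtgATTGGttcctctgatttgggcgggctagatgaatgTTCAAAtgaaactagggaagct
Plk1 (chr1:186147508-186147657, plus strand): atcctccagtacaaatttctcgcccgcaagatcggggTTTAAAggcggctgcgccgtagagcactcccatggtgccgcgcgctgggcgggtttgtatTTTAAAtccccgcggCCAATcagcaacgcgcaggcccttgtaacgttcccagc

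CCAAT was found on either strand in 6 of the 6 windows, and in 37.5% of the 33469 windows of this length in the table. TTTGAA or TTTAAA was found in 5 of 6, all but Pcna, against 28.3% of all windows, and both a CCAAT and a CHR core in 5 of 6 against 11.3%. The windows of Cdk1 and Ccnb1 each hold a pair of CCAAT matches on the same strand whose first bases lie 32 bases apart. Such a pair, spaced 31 to 33 bases, occurred in 0.669% of all windows and was looked for after the sequences had been seen. The Top2a window holds 4 CCAAT matches and 1 CHR core, and the Mki67 window 4 and 2, with 1 CHR core sharing a base with a CCAAT match. The E2F sequences TTTGGCGC and TTTCCCGC matched 0 of the 6 windows and 1.45% of all windows. Only these exact sequences were searched for E2F. Other forms, such as the unmarked TTTCGCGC in the Cdk1 stretch above, were not counted, so the 0 does not mean that E2F sites are absent. These matches describe the letters of the windows, and binding was not measured here.

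Ccnd1 (ENSRNOG00000020918) encodes cyclin D1, which responds to growth signals in G1 and activates Cdk4 and Cdk6. Its level was 83.8, 88.1 and 77.2 CPM in SD and 57.4, 57.0 and 49.9 CPM in tish. Every tish library was below the lowest SD library, SD 3, and the spread within both groups was narrow. With a log2 fold change of -0.60 (SE 0.09, edgeR adjusted p = 0.00203), it changed least of the 9. In tish the fitted level was 65.9% of that in SD.

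Pcna (ENSRNOG00000021264) encodes the sliding clamp that holds DNA polymerase on its template during replication, and it also serves in DNA repair. Its level was 142, 193 and 196 CPM in SD and 103, 113 and 112 CPM in tish. SD 1 lay closer to the tish libraries than to the other SD libraries, yet above all 3 of them. Pcna fell by 0.69 on the log2 scale (SE 0.12, edgeR adjusted p = 0.00392). The lowest SD library was 1.25 times the highest tish library, the narrowest gap among the 9 genes.

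Top2a (ENSRNOG00000053047) encodes topoisomerase II alpha, which untangles and separates sister chromatids and is made from S phase to mitosis. Its level was 157, 219 and 239 CPM in SD and 77.8, 81.6 and 75.0 CPM in tish. The 3 tish libraries lay close together, and even SD 1 was 1.93 times the highest of them. Top2a fell by 1.39 on the log2 scale (SE 0.14, edgeR adjusted p = 0.000464), and 291 of the 14818 tested genes fell further.

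Ccna2 (ENSRNOG00000015423) encodes cyclin A2, the partner of Cdk2 in S phase and of Cdk1 in G2. Its level was 37.0, 51.7 and 55.9 CPM in SD and 17.8, 16.0 and 15.7 CPM in tish. It had the largest change of the 9, a log2 fold change of -1.55 (SE 0.16, edgeR adjusted p = 0.000316), and a fitted tish level of 34.2% of SD. Of all tested genes, 211 fell further.

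Cdk1 (ENSRNOG00000000632) encodes the kinase that drives entry into mitosis. Its level was 50.1, 79.7 and 72.3 CPM in SD and 26.9, 33.1 and 25.5 CPM in tish. SD 1 was the low library of its group and tish 2 the high one of the other, and the groups stayed apart by a ratio of 1.51. The log2 fold change was -1.24 (SE 0.18, edgeR adjusted p = 0.00206).

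Ccnb1 (ENSRNOG00000058539) encodes cyclin B1, the mitotic partner of Cdk1, which is made in G2 and destroyed as cells leave mitosis. Its level was 48.7, 68.2 and 66.7 CPM in SD and 22.4, 21.9 and 21.6 CPM in tish. The tish libraries were nearly level, with a coefficient of variation (CV) of 1.84%. SD 1 was 2.17 times the highest of them, the widest gap among the 9 genes. On the log2 scale Ccnb1 changed by -1.48 (SE 0.13, edgeR adjusted p = 0.000184).

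Plk1 (ENSRNOG00000018815) encodes polo-like kinase 1, which acts in centrosome maturation and spindle assembly. Its level was 49.0, 79.5 and 72.8 CPM in SD and 28.5, 31.7 and 24.5 CPM in tish, and the groups did not overlap. The log2 fold change was -1.25 (SE 0.18, edgeR adjusted p = 0.00228). Plk1 and Cdk1 had the same order of the 6 libraries, with SD 2 highest and tish 3 lowest.

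Aurkb (ENSRNOG00000005659) encodes aurora kinase B, the enzyme of the chromosomal passenger complex, which corrects faulty attachments of chromosomes to the spindle and takes part in cytokinesis. Its level was 45.6, 71.4 and 68.6 CPM in SD and 27.9, 25.6 and 21.9 CPM in tish. All 3 tish libraries were below SD 1, the low library of the SD group. Aurkb fell by 1.30 on the log2 scale (SE 0.18, edgeR adjusted p = 0.00157).

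Mki67 (ENSRNOG00000028137) encodes a coat protein of mitotic chromosomes that is widely stained for to find cycling cells. Its level was 71.1, 73.0 and 116 CPM in SD and 42.2, 38.7 and 30.5 CPM in tish. Here the library apart in SD was SD 3, not SD 1, and the SD group had a CV of 29.3%, the widest of the 9 genes. The log2 fold change was -1.23 (SE 0.22, edgeR adjusted p = 0.00607). Without SD 3 it was -0.96, under a 2-fold change. With males alone Mki67 missed the threshold (-1.36, edgeR adjusted p = 0.0747), where the other 8 genes were still called. In that fit 6.46% of all tested genes were called lower, against 12.9% with all libraries.

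**Figure D2:**
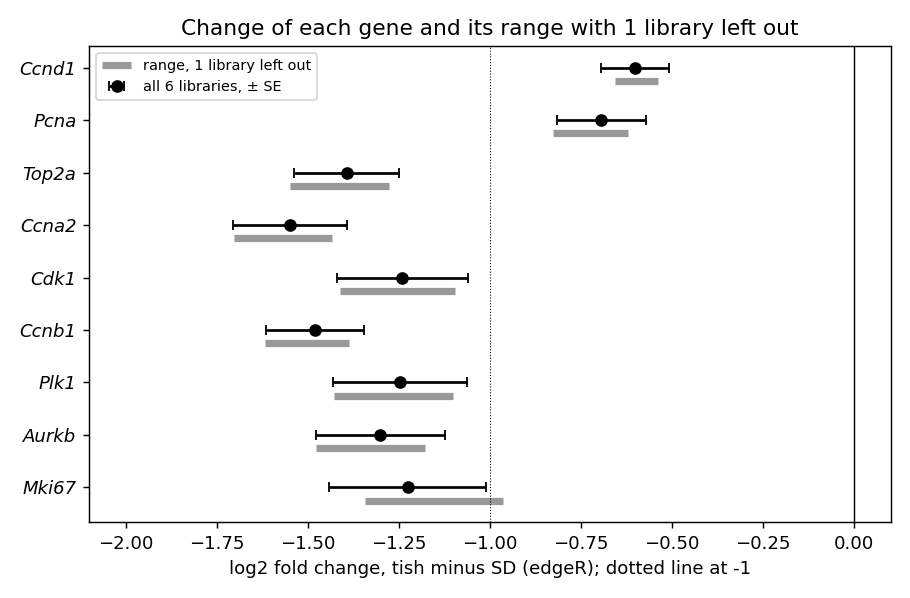
Log2 fold change of each gene, tish minus SD, from edgeR with its standard error (black), and the range of the value when each library in turn was left out (grey bar). Ccnd1 and Pcna lie between -1 and 0, and the other 7 lie below -1 with all libraries, while the range of Mki67 reaches -0.96.

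Among all tested genes the 9 lay in the lower tail of the fold changes. Between 1.42% (Ccna2) and 2.79% (Mki67) of tested genes fell further than each of the 7 genes with the larger changes. For Pcna this share was 8.29% and for Ccnd1 10.3%.

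**Figure D3:**
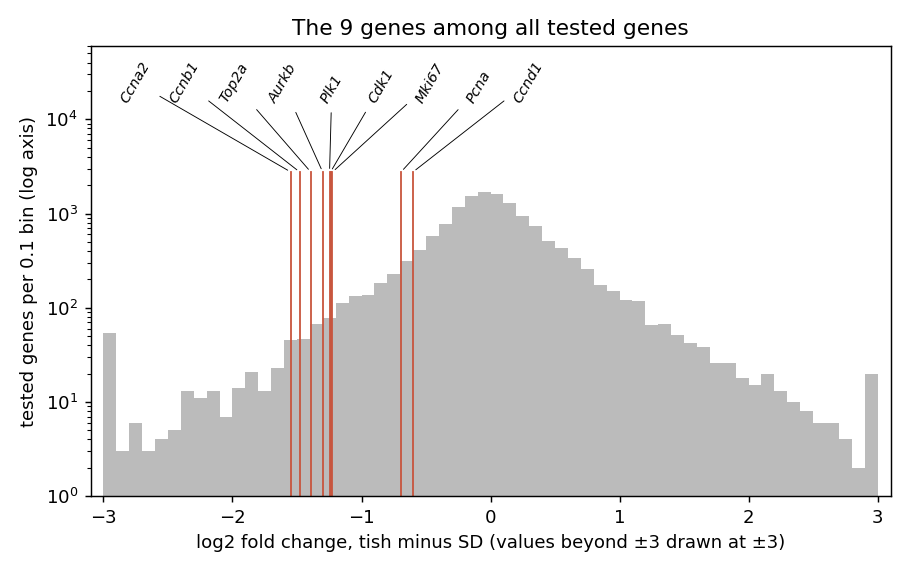
Number of tested genes (log axis) by log2 fold change, tish minus SD, in bins of 0.1, with values beyond 3 in size drawn at the edge; red lines mark the 9 genes. All 9 lines lie left of 0, from -1.55 for Ccna2 to -0.60 for Ccnd1.

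The share of Pcna and Ccnd1 among the 9 genes was larger in tish, and that of Top2a, Ccna2 and Ccnb1 smaller, by shifts that the exact test used for them cannot call at 0.05. Each gene was set against the summed level of the 9 within its library, a share that does not depend on the scaling of libraries. These shares add up to the whole in each library, so genes that fell less than the sum gained share. The shares thus restate the fold changes above and are not separate evidence. The share of Pcna was 20.7 ± 0.307% in SD and 27.4 ± 2.07% in tish, and that of Ccnd1 9.93 ± 2.14% and 13.7 ± 0.471% (n = 3 each, ± s.d.). Both were higher in 3 of 3 tish libraries than in any SD library. Shares of Top2a (23.8 ± 0.895% and 19.6 ± 0.361%), Ccna2 (5.60 ± 0.203% and 4.13 ± 0.291%) and Ccnb1 (7.13 ± 0.235% and 5.50 ± 0.267%) were lower in every tish library (n = 3 each, ± s.d.). For these 5 genes the exact two-sided permutation test gave p = 0.1, the smallest value that 3 against 3 allows, and 0.18 after adjustment over the 9 genes. That test therefore could not reach the 0.05 threshold for any share, and no model-based test of the shares was run. Shares of Cdk1, Plk1, Aurkb and Mki67 overlapped between the groups (exact permutation p = 0.2 to 0.8). CPM is not corrected for transcript length, so the shares compare libraries, not the amounts of different genes.

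**Figure D4:**
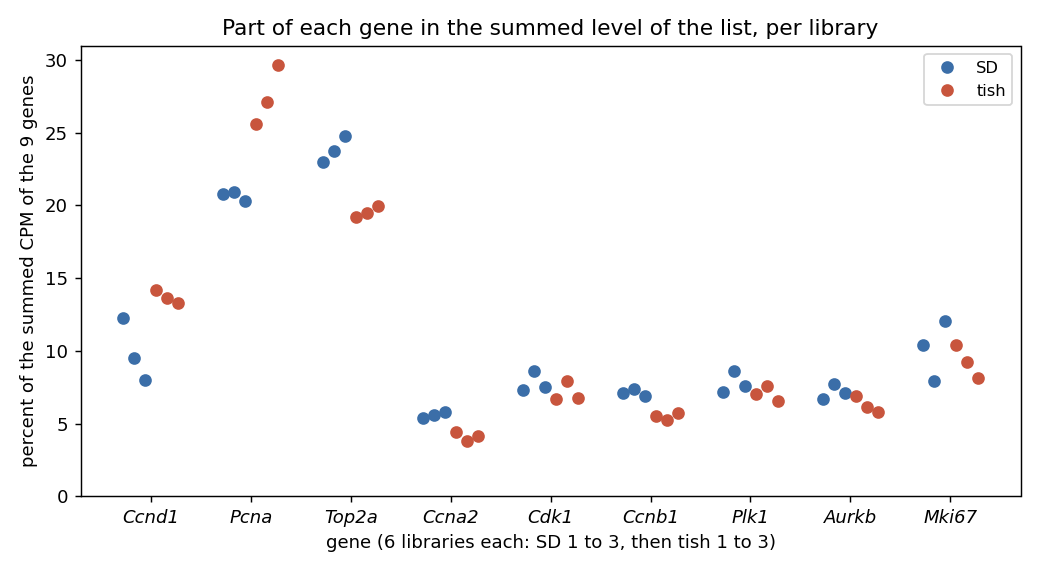
Share of each gene in the summed CPM of the 9 genes (percent, axis from 0) in each library, SD in blue and tish in red. The tish points lie above the SD points for Ccnd1 and Pcna and below them for Top2a, Ccna2 and Ccnb1, and the groups overlap for the other 4.

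Ratios of counts were taken for 8 pairs of the genes, chosen after their values had been seen and given without a test. The groups did not overlap in 3 of them and overlapped in 5. Pairs of other tested genes were not examined, so these counts have no share to be read against. Like the shares, the ratios restate the fold changes above and are not separate evidence. Top2a had 1.11, 1.14 and 1.22 counts per Pcna count in SD, and 0.751, 0.719 and 0.672 in tish. Cdk1 had 0.352, 0.412 and 0.369 per Pcna count in SD and 0.260, 0.292 and 0.229 in tish. Both ratios were lower in every tish library. Aurkb counts per Plk1 count were 0.924 ± 0.0229 in SD and 0.893 ± 0.0853 in tish (n = 3 each, ± s.d.), and the groups overlapped. Ccnb1 counts per Cdk1 count were 0.972, 0.856 and 0.921 in SD and 0.832, 0.661 and 0.847 in tish, so the groups came close to overlapping. Ccna2 counts per Cdk1 count overlapped between the groups, at 0.720 ± 0.0645 in SD and 0.586 ± 0.0913 in tish. Ccna2 against Ccnb1 overlapped, at 0.785 ± 0.0468 in SD and 0.751 ± 0.0383 in tish (n = 3 each, ± s.d.). Overlap was also seen for Mki67 against Top2a, at 0.424 ± 0.0803 in SD and a higher mean of 0.474 ± 0.0683 in tish, and for Pcna against Ccnd1, at 2.14 ± 0.423 and 2.01 ± 0.218.

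Except for Ccnd1, the spread of these genes was wider among the SD embryos than among the tish embryos, a difference that was not tested. Ccnd1 had a CV of 6.60% in SD and 7.68% in tish. The median CV over the 9 genes was 20.8% in SD and 7.68% in tish, and over all tested genes it was 11.7% and 8.53%. SD 1 was the lowest SD library for 8 of the 9 genes, at 0.643 (Plk1) to 0.752 (Mki67) times the mean of SD 2 and SD 3. The exception was Ccnd1, at 1.01 times that mean, with SD 3 lowest. Without SD 1 the median log2 fold change of the 9 genes was -1.43. In tish, tish 3 was the lowest library for 8 of the 9 genes. With SD 1 and tish 3 both left out, 9 of 9 genes were called lower, against 12.1% of all tested genes. Their median was then -1.34, against -0.0097 over all tested genes.

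The 9 genes were lower in tish in both sexes. In females, 1 embryo per group, the SD to tish ratio of CPM ran from 1.55 for Ccnd1 to 3.23 for Ccna2, and it has no replicate check. In males, 2 embryos per group, the ratio of means ran from 1.501 for Ccnd1 to 2.77 for Ccna2. Between the sexes, with genotype in the model, 0 of the 9 genes were called (edgeR adjusted p 0.50 to 0.921), and 1 passed at an unadjusted p under 0.05, Cdk1, with a male minus female log2 fold change of -0.36 (SE 0.14). Over all tested genes 0.0405% were called between the sexes. The difference between the genotype effects in males and females was not tested.

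Library totals ran from 15625915 to 20844504 counts and TMM factors from 0.970 to 1.04. The 9 genes together took 0.0866 ± 0.0139% of all counts in SD and 0.0395 ± 0.00262% in tish (n = 3 each, ± s.d.). Every value rests on at least 279 counts in a library, the count of Ccna2 in tish 1, and on at most 4454, that of Top2a in SD 3. Depth was therefore no limit on detecting these genes. Markers of radial glia, intermediate progenitors, neurons and other cell types, and Eml1 itself, were not analysed here, since the gene IDs were not paired with symbols, so the part of cell composition in the change was not tested.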

How the data were processed

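RNA was measured in 6 libraries, 3 SD and 3 tish. The authors deposited raw read counts per Ensembl gene ID, aligned with STAR to Rnor_6.0 and counted with featureCounts 1.5.0, per the submitters' processing notes. The STAR version, annotation release, strand setting and handling of multiply mapped reads were not given in the sources used here. The table repeats 32751 IDs and has 1 line that names no gene, so the first occurrence of each of 32754 IDs was used. Counts in the repeated lines were not compared with those of the first occurrence. The symbols of the 9 IDs come from the rule that defined the list. They could not be checked, since the reference table lists an Ensembl ID for 0 of its 47357 genes. For the same reason the other cell cycle genes, the cell type markers and the genes of similar pattern that had been planned were not analysed.

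Tests used edgeR 4.0.16 in R 4.3.3 (filterByExpr with a minimum count of 10, TMM, robust quasi-likelihood fit), with Benjamini-Hochberg adjustment over all 14818 tested genes and calls at 0.05. The standard error is the log2 fold change divided by the square root of F. Alternatives were DESeq2 1.42.0, limma-voom 3.58.1, other scalings, filters and thresholds, sex as a covariate, males alone and libraries left out. Members, lists and tests were chosen with earlier results of these data known. All 9 genes are named, in the order of their roles. Replicates were numbered in accession order, which does not pair animals. Promoter windows were searched on both strands.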

Additional observations from a re-analysis of the deposited data

How the results depend on the processing

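Of 144 values of single genes under another setting, 143 kept direction and side of the threshold, 1 missed it (Mki67 with males alone, given above) and 0 reversed. All 9 genes were called lower under DESeq2, limma-voom, RLE, upper quartile or no scaling factors, both other filters and sex as a covariate. All 9 were also called lower at thresholds of 0.01 and 0.1 and with each library left out, and 8 with males alone. At the main threshold, the share of all tested genes called lower ran from 6.46% (males alone) to 15.4% (no scaling factors). With 1 library left out this share ran from 7.5% (without tish 1) to 15.2% (without SD 1). At thresholds of 0.01 and 0.1, 13% and 35.1% of all tested genes were called in either direction. The median log2 fold change ran from -1.16 (without tish 3) to -1.43 (without SD 1) with 1 library left out, and the summed tish to SD ratio from 0.424 to 0.495. The share of Mki67 within the 9 genes changed sign: its log2 difference was -0.11 with all libraries, -0.28 to 0.024 with 1 left out (0.024 without SD 3), and 0.0103 without SD 1 and tish 3. The cause was not tested. No paired analysis was possible because the labels number no replicates.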
